A study of Mus musculus with 6 samples.

Results

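The spinal cord class is the group of cells that carries the name Spinal cord in the authors' deposited annotation of day 6 neural tube organoids. It held 684 of the 4301 cells of the day 6 table and of the 16282 cells of the whole series. Of these, 507 cells came from the library of elongated organoids and 177 from the library of non-elongated organoids. The cells were taken from the annotation as deposited. The annotation is itself a clustering of the same cells, so a gene that sets the class apart from another class describes the class and cannot serve as a test of it.

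Neural tube organoids are hollow neuroepithelial structures that form from embryonic stem cells in a gel. Both groups were grown from the reporter line Sox1::eGFP;Bra::mCherry mESCs, mouse embryonic stem cells in which fluorescent proteins mark the neural gene Sox1 and the mesodermal gene Brachyury. The cells were embedded in Matrigel and received basic fibroblast growth factor at 12 ng/ml and activin-A at 20 ng/ml until day 3, and N2B27 medium without them from then to day 6. Elongated organoids had lengthened by day 6 and non-elongated organoids had not; no other treatment separates the groups in the labels. Each condition pooled 100 organoids before dissociation, so the cells of 1 library cannot be traced to an organoid. The day 6 table holds 1 library per group, which leaves no spread between replicates: every difference between the libraries below is a description of these libraries, and its intervals cover counting error only. A second elongated library of day 6, labelled batch 2, was deposited in another table with its own clustering and its own set of genes. It is called elongated replicate 2 and is used for comparisons within that table; its levels are set beside those of the day 6 table only as values.

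The spinal cord arises from the caudal part of the neural tube. Its cells descend from progenitors next to the primitive streak that carry both neural and mesodermal factors and that are kept by FGF and Wnt signals. As these cells enter the neural tube, retinoic acid from the flanking mesoderm opposes FGF, caudal homeobox (Cdx) factors and the clustered Hox genes set the position along the axis, and gradients from the roof and the floor of the tube divide progenitors from dorsal to ventral. Hox genes lie in 4 clusters and are numbered by paralogue group: low numbers act from the hindbrain backwards, middle numbers in the cervical and thoracic cord, and the highest numbers in the lumbar, sacral and tail region.

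In the elongated library the spinal cord class held 17004139 UMIs (unique molecular identifiers, each counting 1 captured RNA molecule), and in the non-elongated library 5498885. Its median cell had 31811 UMIs and 5291 genes in the elongated library, against 29155 UMIs and 5072 genes in the non-elongated library. The median share of mitochondrial UMIs was 5.26% and 5.13%. The barcodes of the libraries were nearly all distinct, with 1 barcode shared between the elongated and the non-elongated library. Levels are given in CPM, UMIs of a gene per 1000000 UMIs of the class in that library, with exact Poisson 95% intervals. Because the kit reads 3 prime ends and the length of each transcript does not enter, levels are compared between groups and not between genes.

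The spinal cord class made up 24.4% of the cells of the elongated library (507 of 2076 cells, exact Clopper-Pearson 95% interval 22.6 to 26.3%). It made up 7.96% of the non-elongated library (177 of 2225 cells, 6.86 to 9.16%). These intervals do not overlap. Caudal epiblast, the class that holds the most cells with posterior Hox RNA outside the spinal cord class, ran the other way, with 18.2% of the elongated and 45.6% of the non-elongated library. Hindbrain took 35.6% of the elongated and 22.7% of the non-elongated library. Counted over the hindbrain, midbrain and spinal cord classes alone, the spinal cord share was 38.0% in the elongated (507 of 1333 cells) and 22.6% in the non-elongated library (177 of 784 cells). In elongated replicate 2 the annotation gave the name Spinal cord to 131 of 2402 cells (5.45%) and the name Mid/hindbrain to 90.5%. Classes were drawn separately in that table, so its share is given with its own denominator; the 24.4% of the elongated library of the day 6 table therefore has no replicate.

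**Figure D1:**
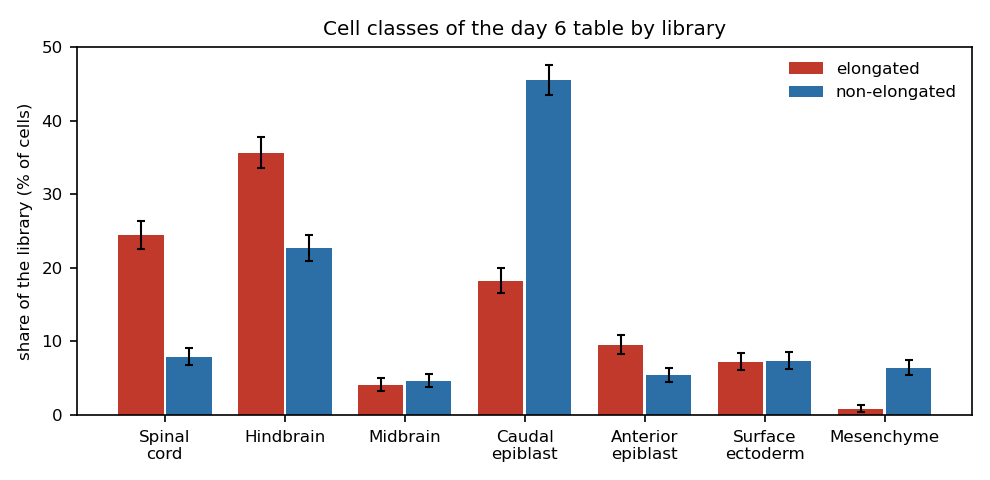
Share of the cells of each library (%) in each of the 7 classes of the day 6 table, elongated in red left of non-elongated in blue; bars are shares and black lines exact 95% Clopper-Pearson intervals of counting error. The spinal cord class is 24.4% of the elongated and 7.96% of the non-elongated library.

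The label was set against its markers. Hoxb9 (chromosome 11, 96271457 to 96276595, mm10), a Hox gene of the trunk, stood at 380.0 CPM (371 to 389) in elongated spinal cord cells and at 301 CPM (286 to 316) in non-elongated ones, against 8.16 and 9.34 CPM in hindbrain cells of those libraries. After each cell was thinned to 10000 UMIs, 91.7% of elongated and 87.0% of non-elongated spinal cord cells had a Hoxb9 UMI. Of midbrain cells, a type that should lack the gene, 1.16% and 1.96% had one. Whether free RNA, doublets or misassigned cells gave these UMIs was not tested. At full depth the spinal cord shares were 97.6% and 96.6%. Midbrain cells had median depths of 34717.5 and 26739 UMIs before thinning. Hoxc8 was at 101 CPM in the elongated and 114 CPM in the non-elongated spinal cord class, and at 0.451 and 1.04 CPM in hindbrain. Hoxc9 was at 42.8 and 36.4 CPM in spinal cord and at 0.263 and 0.174 CPM in hindbrain. Cdx4, a caudal homeobox factor that acts upstream of trunk Hox genes, was at 20.8 and 22.7 CPM in spinal cord and at 0.226 and 0.464 CPM in hindbrain. These 4 genes were higher in the spinal cord class than in hindbrain in each library. Sox2, which marks neural progenitors at all levels of the axis, did not set the class apart from hindbrain: it was at 168 and 119 CPM in spinal cord and at 168 and 116 CPM in hindbrain. The class was drawn by clustering the cells on such genes, so these levels describe what carries the label and are no test of it.

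Most counted Hox genes were higher in the class than in hindbrain. Of 39 Hox genes listed, 33 were in the table, and 20 averaged at least 5 CPM over the spinal cord and hindbrain sums, the minimum used here to count a gene. Of these 20, 16 were at least 2-fold higher in spinal cord than in hindbrain in both libraries and 0 were lower, on log2(CPM + 1); over all 8933 genes counted, 0.772% were that much higher. The median difference of the counted Hox genes, spinal cord minus hindbrain, was 3.67 in the elongated and 3.53 in the non-elongated library on the log2 scale, against 0.03 and 0.02 for all counted genes. The minimum holds for the mean over both classes, so a gene below it in hindbrain was counted only through spinal cord, where it is higher. Such genes include Hoxa4 (0.902 and 1.68 CPM in hindbrain), Hoxa5 (2.26 and 4.35 CPM), Hoxc8 and Hoxc9. The count of 16 and the medians are therefore in part fixed by the minimum. Hoxa2, Hoxb1 and Hoxb2, genes of paralogue groups 1 and 2 that are at home in the hindbrain, were not 2-fold apart in both libraries.

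Levels were also summed by paralogue group, to be compared between classes. Genes of groups 1 to 3 summed to 320.1 CPM in elongated and 341 CPM in non-elongated spinal cord cells, against 201 and 229 CPM in hindbrain cells. Groups 4 and 5 summed to 159.7 and 144 CPM in spinal cord and to 10.1 and 12.1 CPM in hindbrain. Groups 6 to 9 summed to 945 and 950.2 CPM in spinal cord and to 27.0 and 27.0 CPM in hindbrain. Groups 10 to 13 summed to 0.706 and 5.64 CPM in spinal cord, 12 and 31 UMIs in all, and to 0.150 and 0.522 CPM in hindbrain. The sums of groups 10 to 13 had intervals of 0.365 to 1.23 CPM in elongated and 3.83 to 8.00 CPM in non-elongated spinal cord cells. At 10000 UMIs per cell, 3 of 507 and 7 of 177 cells had a UMI of these groups. The table holds 12 genes of groups 6 to 9 and 6 of groups 10 to 13, and levels are not compared between genes. The sums of different groups are therefore not set against each other. At 10000 UMIs per cell, 98.2% of elongated and 98.9% of non-elongated spinal cord cells had a UMI of a Hox gene of groups 6 to 9, against 96 of 740 and 59 of 505 hindbrain cells and 2.33% and 1.96% of midbrain cells.

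**Figure D2:**
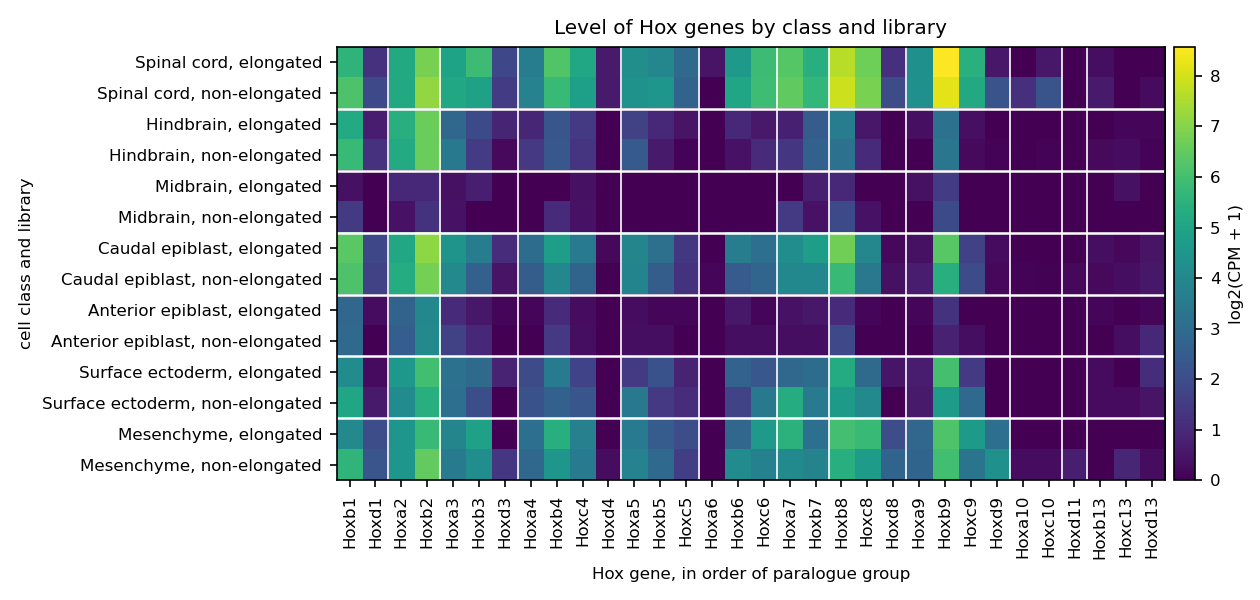
Level of Hox genes of the table, as log2(CPM + 1), in each class (rows, elongated above non-elongated) with genes ordered by paralogue group. In spinal cord cells the genes of groups 1 to 9 run from near 0, such as Hoxa6, Hoxd1 and Hoxd4, to the highest level of the map at Hoxb9, and those of groups 10 to 13 reach at most 3.64 CPM, at Hoxc10 in the non-elongated library. Of the genes shown, hindbrain cells are highest in Hoxb2, Hoxa2 and Hoxb1, and midbrain cells are low throughout.

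Of groups 6 to 9, Hoxb8 was at 200.2 CPM (194 to 207) in elongated and 243 CPM (230.3 to 257) in non-elongated spinal cord cells, Hoxa7 at 79.0 and 88.2 CPM, and Hoxc6 at 57.6 and 59.3 CPM. Hoxa9 was at 18.6 and 18.5 CPM. The intervals of Hoxa7, Hoxc6, Hoxc8, Hoxc9 and Hoxa9 overlapped between the libraries. Those of Hoxb1 to Hoxb9 did not overlap, with Hoxb3, Hoxb4 and Hoxb9 higher and Hoxb1, Hoxb2, Hoxb5, Hoxb6, Hoxb7 and Hoxb8 lower in the elongated library, each by less than 2-fold on log2(CPM + 1). Of the 21 Hox genes counted for this comparison, 0 were 2-fold apart between the libraries, where 2.43% of all 8877 counted genes were. The median of their differences, elongated minus non-elongated, was -0.12 on the log2 scale. The largest gap among them was that of Hoxb3, a gene of the hindbrain and cervical cord, at 58.5 CPM in elongated and 29.1 CPM in non-elongated spinal cord cells (log2 difference 0.98). Spinal cord cells of elongated replicate 2, in the other table, had lower levels of several of these genes than both libraries of the day 6 table: Hoxb8 was at 114 CPM there, Hoxc8 at 39.5, Hoxa7 at 34.5, Hoxc6 at 29.1, Hoxc9 at 5.58 and Hoxa9 at 2.92 CPM.

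At the posterior end, counts were few. Hoxc10 had 8 UMIs in elongated and 20 UMIs in non-elongated spinal cord cells, 0.470 CPM (0.203 to 0.927) and 3.64 CPM (2.22 to 5.62). Hoxd9 had the same 8 and 20 UMIs. Hoxa10 had 0 UMIs in 507 elongated cells, which allows up to 0.176 CPM, and 7 UMIs (1.27 CPM) in 177 non-elongated cells. The intervals of Hoxc10, Hoxd9 and Hoxa10 did not overlap between the libraries, and all 3 genes were higher in the non-elongated one. Hoxd9 also stood at 18.6 CPM in non-elongated mesenchyme cells, and whether RNA from other cells takes part in these counts was not tested. Hoxd4 was at 0.529 and 0.546 CPM in the day 6 table and at 29.8 CPM in spinal cord cells of elongated replicate 2, 1 of the genes whose levels differ between the deposited tables. Exons of Hoxd4 overlap those of Hoxd3 and Gm28230 on the same strand, and exons of Hoxc10 those of Hoxc5. The reads of these genes cannot be told apart with certainty.

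The promoter of Hoxb8 is shown because this gene of the middle groups was among the 8 that stood furthest above hindbrain and because its start is preceded by a cluster of letters of the Cdx type. The motif TTTATNG was searched on both strands in the 250 bases before each start of RefSeq genes (build GRCm38.p6). It was found in 9.81% of 32851 promoters. Of 24 promoters of listed Hox genes, 2 held it, those of Hoxb8 and Hoxd4, a share of 8.33%. Hoxb8 held it 3 times on its own strand, and these matches do not overlap. The stretch is chr11:96281685-96281814, plus strand, from 220 to 91 bases before the start, and capitals mark the matches.
Hoxb8: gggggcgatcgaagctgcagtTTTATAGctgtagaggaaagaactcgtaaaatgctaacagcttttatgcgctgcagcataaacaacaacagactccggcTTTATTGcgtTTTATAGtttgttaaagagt
A match is a description of these letters and does not show that a factor binds there.

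The Hox clusters also give rise to non-coding RNAs. Of 4 listed ones in the table, 2 were at least 2-fold higher than in hindbrain in both libraries, Hoxaas3 and Hoxb5os. Of all counted genes, 0.772% were that much higher. Hoxaas3 (chromosome 6, 52175217 to 52215076, plus strand, mm10) was at 414 CPM in elongated and 440.3 CPM in non-elongated spinal cord cells, against 15.0 and 10.3 CPM in hindbrain. Its exons overlap those of Hoxa3 and Hoxa7 on the other strand, and whether the authors' counting used the strand is not given in the sources used here, so the reads of these genes cannot be told apart with certainty. Hoxb5os (chromosome 11, 96291024 to 96306910, minus strand), which overlaps Hoxb5 in the same way, was at 341 CPM (332 to 349.9) in elongated and 142 CPM (132 to 152) in non-elongated spinal cord cells. Its levels in hindbrain were 5.49 and 2.15 CPM, with a mean below the minimum, so Hoxb5os was counted against hindbrain through spinal cord alone. Hoxb5os was the only counted RNA of the Hox clusters, genes and listed non-coding RNAs together, that was 2-fold apart between the libraries (log2 difference 1.26), while Hoxb5 itself was at 14.5 CPM in elongated and 21.5 CPM in non-elongated cells.

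The 12 genes most specific to the class, by the smaller of their 2 gaps to the highest of the other classes, were 9 of the Hox clusters and 3 others. The Hox entries were Hoxb9, Hoxc6, Hoxc8, Hoxc9, Hoxb5os, Hoxb4, Hoxaas3, Hoxc4 and Hoxa7. Ncam1, the neural cell adhesion molecule, was at 171 CPM in elongated and 171 CPM in non-elongated spinal cord cells, against 45.2 and 41.0 CPM in hindbrain. Mllt3, a subunit of a complex that promotes transcript elongation, was at 105 and 87.5 CPM in spinal cord and at 33.0 and 25.7 CPM in hindbrain. Plagl1, an imprinted zinc finger gene, was at 29.3 and 27.6 CPM in spinal cord and at 10.6 and 11.3 CPM in hindbrain. Hindbrain was not always the highest of the other classes with at least 50 cells. On log2(CPM + 1), Ncam1 was 0.986 above caudal epiblast in the elongated and 1.96 above mesenchyme in the non-elongated library. Mllt3 was 1.21 above caudal epiblast and 1.12 above midbrain, and Plagl1 1.12 above surface ectoderm and 1.22 above hindbrain. Ncam1 has an antisense neighbour that overlaps it, so its reads are uncertain in the same way as those of Hoxaas3.

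Against hindbrain, the neural class next to it along the axis, 148 of 8933 counted genes (1.66%) were at least 2-fold apart in the same direction in both libraries. Of these, 69 were higher in spinal cord and 79 (0.884%) lower. A gene below the minimum in 1 of the classes was counted only through the other, so these counts are in part fixed by the minimum. The 8 highest were Hoxc8, Hoxb5os, Hoxa7, Hoxc9, Hoxc6, Hoxb9, Hoxaas3 and Hoxb8, with log2 differences between 4.05 and 6.13 over both libraries. The 8 lowest were Fst, Prrx2, Irx2, Klf2, Fabp7, Mt1, Pou5f1 and Mt2. Fst, which encodes follistatin, an inhibitor of activin and BMP ligands, was at 16.9 CPM in elongated and 18.7 CPM in non-elongated spinal cord cells, against 123 and 130.1 CPM in hindbrain. Irx2, an Iroquois homeobox gene, was at 26.1 and 14.0 CPM in spinal cord and at 116 and 64.5 CPM in hindbrain. The metallothionein gene Mt1 was at 91.0 and 299 CPM in spinal cord and at 561 and 978 CPM in hindbrain. Prrx2, Klf2, Fabp7 and Mt2 lay between -4.16 and -1.59. Among the listed hindbrain genes, Egr2 and Epha4, which mark rhombomeres, were lower in spinal cord: Egr2 was at 11.5 and 15.1 CPM, against 53.6 and 32.9 CPM in hindbrain, and Epha4 at 39.3 and 51.5 CPM, against 137 and 128 CPM.

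The same comparison could be made in elongated replicate 2, whose cells took no part in choosing these genes. There the spinal cord class was set against the Mid/hindbrain class of its own table. Of the 69 genes higher in the day 6 table, 61 (88.4%) were at least 2-fold higher in replicate 2, where 1.31% of the 8810 genes counted in that library and present in both tables were. Of the 79 lower genes, 78 were in the other table and 65 (83.3%) were at least 2-fold lower, where 1.45% of the counted genes were. All 69 and all 78 had the same sign. The class of that table was also drawn by clustering on such genes. In its spinal cord cells Hoxb9 stood at 273 CPM and Hoxc9 at 5.58 CPM, against 2.28 and 0.0361 CPM in its Mid/hindbrain cells.

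Outside the spinal cord class, caudal epiblast held the largest number of cells with a UMI of Hox groups 6 to 9. At 10000 UMIs per cell these were 58.5% of 378 elongated and 38.7% of 1014 non-elongated cells. Mesenchyme, a smaller class, had such a UMI in 52.9% of 17 elongated and 42.7% of 143 non-elongated cells. The summed level of these groups was higher in mesenchyme, at 314 and 226 CPM, than in caudal epiblast, at 266 and 150 CPM. Of 8903 counted genes, 70 (0.786%) were at least 2-fold higher and 127 (1.43%) lower in spinal cord than in caudal epiblast in both libraries. All 5 counted members of the pluripotent and epiblast list were lower: Pou5f1, which encodes the pluripotency factor OCT4, was at 5.12 CPM in elongated and 41.6 CPM in non-elongated spinal cord cells, against 144 and 337 CPM in caudal epiblast. Of 10 counted epithelial genes, 7 were lower in both libraries, such as Epcam, an epithelial adhesion molecule, at 11.8 and 65.3 CPM in spinal cord and 134 and 275 CPM in caudal epiblast. Of 13 counted neural progenitor genes, 4 were higher in both libraries, Cdh2, Hes5, Rfx4 and Sox21, and 0 were lower. Sox21, a factor of neural progenitors, was at 76.7 and 34.7 CPM in spinal cord and at 32.3 and 11.2 CPM in caudal epiblast. Of 20 counted Hox genes, 10 were higher in both libraries, and 0 were lower in both. Hoxa9 had the widest gap of the counted Hox genes, at 18.6 and 18.5 CPM in spinal cord and at 0.316 and 0.610 CPM in caudal epiblast, followed in the elongated library by Hoxc9 (2.15 and 3.02 CPM in caudal epiblast). Both were below the minimum in caudal epiblast and were counted only through spinal cord. The counts against caudal epiblast are thus in part fixed by the minimum, as are those against hindbrain.

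Between the libraries, spinal cord cells differed in 216 of 8877 counted genes (2.43%) by at least 2-fold on log2(CPM + 1). Of these, 93 genes (1.05%) were higher in the elongated library and 123 genes (1.39%) lower. With cells thinned to 10000 UMIs the balance turned, with 182 genes higher and 167 lower, 349 in all. The 216 became 141 with a pseudocount of 3 CPM, 500 with no minimum level and 64 with a minimum of 20 CPM. The minimum of 5 CPM holds for the mean of both libraries, so a gene below it in 1 library was counted only through the other, where it is higher, and its difference is in part fixed by the minimum; of the members of the lists called apart these are Cdh1, Cdx1, Dbx1, Dbx2, Fgf17, Hspb1, Msx2, Nr2f1, Olig3, Rarb and Rspo3. With the same rule, 1.38% of 8916 counted genes were apart between the libraries within hindbrain and 1.04% of 8871 within caudal epiblast; those classes hold more UMIs than the 177 non-elongated spinal cord cells, so their counting error is smaller. The median difference over all counted genes was 0.04 in spinal cord.

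The largest difference was that of Dbx1 (chromosome 7, 49631499 to 49636849), a homeobox gene of interneuron progenitors at the middle of the dorsoventral axis. It had 698 UMIs in elongated spinal cord cells, 41.0 CPM (38.1 to 44.2), and 3 UMIs in non-elongated ones, 0.546 CPM (0.113 to 1.59); the 95% interval of the log2 ratio, counting error only, was 4.68 to 8.52. Pax6 (chromosome 2, 105668900 to 105697364), a paired box factor of neural progenitors, was at 119 CPM (114 to 124) in elongated and 7.82 CPM (5.66 to 10.5) in non-elongated cells (log2 difference 3.77). The intervals of each of these genes lie far apart between the libraries, and the genes were chosen for that difference. Nr2f1 and Nr2f2 encode the orphan nuclear receptors COUP-TFI and COUP-TFII. Nr2f1 was at 54.2 CPM in elongated and 3.27 CPM in non-elongated cells, and Nr2f2 at 37.5 and 5.64 CPM. Rarb, a retinoic acid receptor that retinoic acid itself induces, was at 24.3 CPM (22.0 to 26.7) in elongated and 3.82 CPM (2.36 to 5.84) in non-elongated cells.

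Mir124-2hg (chromosome 3, 17789921 to 17808970), the host transcript of a copy of the neural microRNA miR-124 and also among the 12 highest differences, was at 32.0 CPM in elongated and 2.00 CPM in non-elongated cells. Fez1, an adaptor of axon outgrowth, was at 32.3 and 2.55 CPM. Robo2, a receptor of Slit guidance cues, was at 25.3 and 4.36 CPM. Scube2, a secreted protein that helps release hedgehog ligands, was at 37.1 and 3.82 CPM. The other 3 of the 12 highest differences were those of Fndc5, the membrane precursor of irisin, Nedd9, a scaffold of adhesion signalling, and Fam181a, with log2 differences of 2.80, 2.25 and 2.19. In each of these 12 genes the intervals of the libraries did not overlap, which follows in part from their choice as the largest differences. In spinal cord cells of elongated replicate 2, in the other table, Pax6 stood at 96.7 CPM, Dbx1 at 19.7 CPM, Nr2f1 at 33.6 CPM and Rarb at 17.3 CPM.

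Hspb1 (chromosome 5, 135887919 to 135889563), which encodes a small heat shock protein, had the widest gap of the genes lower in the elongated library, at 2.29 CPM (1.63 to 3.14) in elongated and 40.4 CPM (35.2 to 46.0) in non-elongated cells (log2 difference -3.65). Krt8 and Krt18 encode the paired keratins of simple epithelia. Krt8 (chromosome 15, 101996698 to 102004482) was at 9.12 CPM (7.74 to 10.7) in elongated and 93.1 CPM (85.2 to 102) in non-elongated spinal cord cells, and Krt18 at 13.8 and 83.3 CPM. Epcam was at 11.8 and 65.3 CPM. Tfap2c, a factor of surface ectoderm and germ cells, was at 6.29 and 49.1 CPM. Pou5f1 was at 5.12 CPM in elongated and 41.6 CPM in non-elongated cells.

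Fgf8, a ligand that keeps caudal progenitors undifferentiated, was at 7.00 CPM (5.80 to 8.37) in elongated and 40.2 CPM (35.1 to 45.9) in non-elongated spinal cord cells. Rspo3, a secreted amplifier of Wnt signalling, was at 4.70 and 33.8 CPM. The lowest differences also held those of Smagp, an epithelial membrane protein, Rrad, a small GTPase, and Nr4a1, an immediate early nuclear receptor, with log2 differences of -2.60, -2.26 and -2.11. The intervals of each of these lower genes lay apart between the libraries, which follows in part from their choice as the lowest differences. Of the genes named for this comparison, Nr2f1, Rarb, Pou5f1, Rspo3 and Rrad overlap a gene on the other strand, so part of their reads may belong to it. In spinal cord cells of elongated replicate 2, Krt8 stood at 9.04 CPM, Pou5f1 at 15.1 CPM, Hspb1 at 3.45 CPM and Fgf8 at 4.92 CPM.

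**Figure D3:**
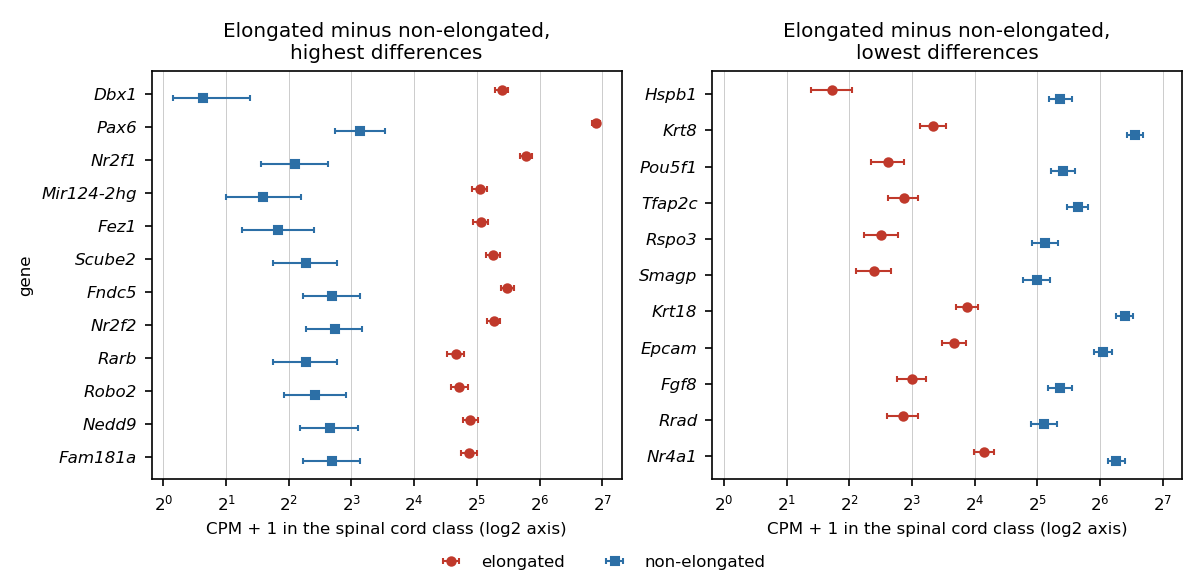
Level in the spinal cord class (CPM + 1, log2 axis) of genes with the highest (left) and the lowest (right) elongated minus non-elongated difference; red circles are the elongated and blue squares the non-elongated library, with exact Poisson 95% intervals of counting error. The genes were chosen for their difference, so the gaps describe them; Dbx1 has the widest gap on the left and Hspb1 on the right.

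Some of these genes were also apart between the libraries in neighbouring classes. Pax6 was also higher in the elongated library within hindbrain, at 29.4 CPM, against 7.71 CPM in non-elongated hindbrain, and within caudal epiblast, at 10.7 and 3.72 CPM. Krt8 was lower in the elongated library in hindbrain (66.6 CPM, against 193 CPM) and in caudal epiblast (74.3 CPM, against 246 CPM), and Pou5f1 likewise (22.1 and 129 CPM in hindbrain, 144 and 337 CPM in caudal epiblast). Dbx1 was low in both of these classes, at 3.08 and 0.232 CPM in hindbrain and at 0.253 and 0.0291 CPM in caudal epiblast. Fndc5 was at 3.95 and 2.09 CPM in hindbrain, below its 43.8 CPM in elongated spinal cord cells. Whether these gaps between classes differ beyond the spread of replicates could not be tested with 1 library per group.

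Of 13 counted neural progenitor genes, 6 were at least 2-fold higher in elongated spinal cord cells (Hes5, Irx3, Irx5, Pax6, Rfx4 and Sox21) and 0 lower, where 1.05% and 1.39% of all counted genes were. Their median difference was 0.64, against 0.61 for the same list in hindbrain and 1.02 in caudal epiblast. Of the 6, Hes5, Pax6 and Rfx4 were 2-fold higher within hindbrain too, and these and Sox21 within caudal epiblast. Irx3 and Irx5 were 2-fold apart in neither of those classes. Hes5, a target of Notch signalling in progenitors, was at 68.5 CPM in elongated and 19.6 CPM in non-elongated spinal cord cells. Irx3, an Iroquois homeobox gene, was at 177 and 82.6 CPM. Sox2 was at 168 and 119 CPM, and Sox1, an early marker of neural fate and the gene of the green reporter, at 34.8 and 22.7 CPM; neither was 2-fold apart. Genes of neurons were few in both libraries: of 13 listed, 2 were counted, and 0 were apart. Tubb3, a neuronal tubulin, was at 14.1 and 12.4 CPM, and Dcx, a marker of young neurons, had 0 and 1 UMIs.

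Neuromesodermal progenitors are the bipotent cells of the tail end. Of 7 counted genes of that list, 5 were at least 2-fold lower in elongated spinal cord cells and 0 higher. Of all counted genes, 1.39% were lower and 1.05% higher. The 5 were Fgf17, Fgf8, Nkx1-2, Sp5 and Wnt8a, of which Fgf17 reached the minimum through the non-elongated library alone. The median of the 7 was -1.40. Nkx1-2, a homeobox gene of the caudal lateral epiblast, was at 17.5 CPM (15.6 to 19.6) in elongated and 42.0 CPM (36.8 to 47.8) in non-elongated cells. Wnt8a, a ligand of the primitive streak region, was at 9.94 and 36.9 CPM. The mesodermal factor T (Brachyury), the gene of the red reporter, was at 2.35 CPM in elongated and 7.27 CPM in non-elongated cells, 40 UMIs in each, with intervals that did not overlap. Tbx6, which commits cells to paraxial mesoderm, was at 0.176 and 2.36 CPM. The list had a median of -0.90 in hindbrain and of -0.14 in caudal epiblast. Of 14 counted trunk regulators and Hox cofactors, 3 were higher in elongated spinal cord cells (Meis1, Nr2f1 and Nr2f2). The 2 lower ones were Cdx1 and Cdx2, and the median was 0.14. Of all counted genes, 1.05% were higher and 1.39% lower. Nr2f1 reached the minimum through the elongated and Cdx1 through the non-elongated library alone. Within hindbrain the same 3 genes were higher and Cdx2 lower, with a median of 0.15. Within caudal epiblast Cdx4 and Meis1 were higher and 0 lower, with a median of 0.11. Meis1, a cofactor of Hox proteins, was at 42.3 CPM in elongated and 11.5 CPM in non-elongated spinal cord cells. Lin28a, an RNA-binding protein of early embryonic cells, was at 124 and 217 CPM in these cells. Of the Cdx genes, Cdx2 was at 54.7 CPM (51.2 to 58.3) in elongated and 136 CPM (126 to 146) in non-elongated spinal cord cells, and Cdx1 at 2.29 and 11.3 CPM. Cdx4 did not differ beyond counting error (18.7 to 23.0 and 18.9 to 27.1 CPM).

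**Figure D4:**
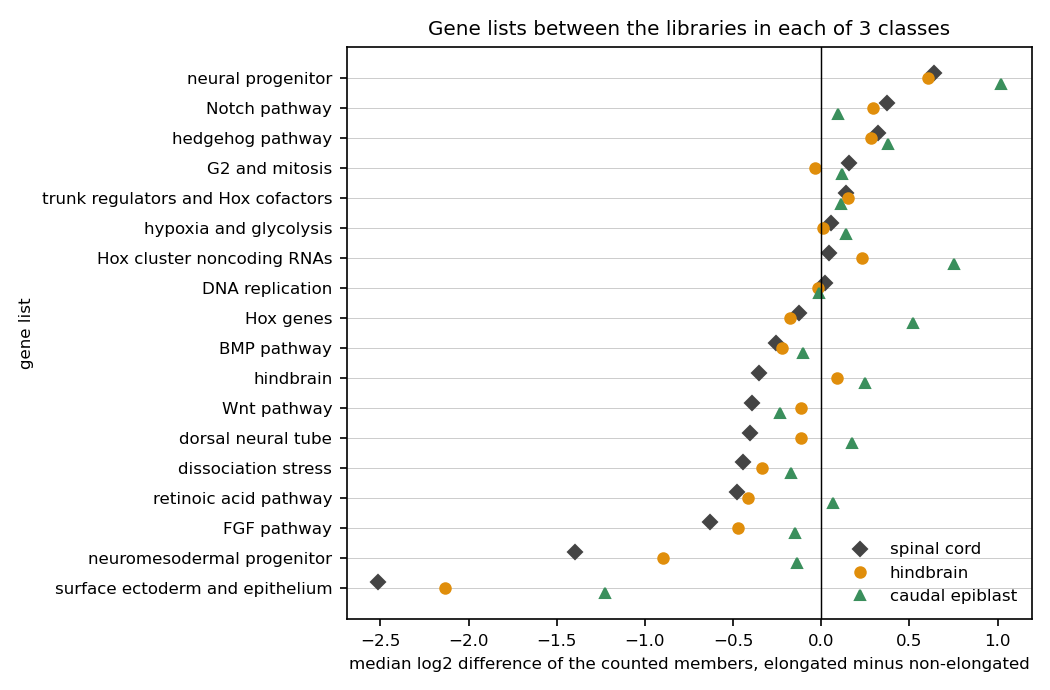
Median elongated minus non-elongated difference (log2 scale) of the counted members of each gene list with at least 3 counted members, other than the ventral and intermediate list, in the spinal cord (diamonds), hindbrain (circles) and caudal epiblast (triangles) classes; positive values are higher in the elongated library. Spinal cord runs from 0.64 for the neural progenitor list to -2.51 for the surface ectoderm list, which rests on 5 counted genes.

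In the retinoic acid pathway, Aldh1a2, the enzyme that makes retinoic acid, was at 26.6 CPM (24.2 to 29.2) in elongated and 20.9 CPM (17.3 to 25.1) in non-elongated spinal cord cells, with overlapping intervals. It was at 4.06 and 3.83 CPM in hindbrain and at 5.56 and 2.21 CPM in caudal epiblast. Of 8 counted members, 1 was 2-fold higher in the elongated library, Rarb, and 1 lower, Rarg. Of all counted genes, 1.05% were higher and 1.39% lower. Rarb reached the minimum through the elongated library alone. Rarg, a receptor of the caudal embryo, was at 7.59 CPM in elongated and 20.5 CPM in non-elongated cells, and Rara at 18.9 and 22.4 CPM. Crabp1, a cytoplasmic carrier of retinoic acid, was at 451 and 888 CPM in spinal cord, below its 2827 and 1977 CPM in hindbrain. Cyp26a1, an enzyme that degrades retinoic acid, was low, at 1.82 and 6.73 CPM in spinal cord and 7.25 and 1.57 CPM in hindbrain.

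The starts of Rarb and Cyp26a1 are printed because both genes belong to the retinoic acid pathway and both hold the letters of a direct repeat of the kind that retinoic acid receptors bind. The motif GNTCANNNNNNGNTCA was searched on both strands in the 250 bases before each start and was found in 0.776% of 32851 RefSeq promoters (GRCm38.p6). Of 19 promoters of the retinoic acid list, which belong to 10 genes, 2 held it (10.5%), 1 of each of these genes. Rarb is shown at chr14:16575477-16575576, minus strand, and Cyp26a1 at chr19:37697708-37697807, plus strand, each from 100 bases before the start to the base before it, with the match in capitals. In Cyp26a1 the match is on the opposite strand.
Rarb: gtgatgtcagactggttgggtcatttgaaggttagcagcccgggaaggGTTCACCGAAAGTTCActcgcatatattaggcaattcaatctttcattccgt
Cyp26a1: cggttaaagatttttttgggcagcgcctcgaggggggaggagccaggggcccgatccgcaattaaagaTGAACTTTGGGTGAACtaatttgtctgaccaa
These letters are a description, and nothing about the binding of a receptor follows from them.

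Of the FGF pathway, 13 members were counted. In elongated spinal cord cells 1 was higher (Fgfr2) and 3 lower (Fgf17, Fgf8 and Spry4), where 1.05% and 1.39% of all counted genes were. Fgf17 reached the minimum through the non-elongated library alone. The list had a median of -0.63, against -0.47 in hindbrain and -0.15 in caudal epiblast. Within hindbrain Fgf3 was higher and Etv4, Etv5 and Spry4 lower, and within caudal epiblast Fgf15 was higher and Fgf8 lower. Spry4, a feedback inhibitor that FGF signals induce, was at 6.17 CPM in elongated and 20.5 CPM in non-elongated spinal cord cells. Etv4, a transcription factor induced by FGF, was at 38.4 and 68.4 CPM in these cells. Fgfr2, an FGF receptor, was at 62.6 and 25.6 CPM. Etv4 was also higher in spinal cord than in hindbrain in both libraries (7.33 and 21.3 CPM in hindbrain). Of the Wnt pathway, 12 members were counted, with 1 higher (Sfrp2, a secreted Wnt antagonist) and 3 lower (Rspo3, Sp5 and Wnt8a). The shares of all counted genes are those given for the FGF pathway. Rspo3 reached the minimum through the non-elongated library alone. Wnt5a, a ligand of axis extension, was at 20.1 and 35.1 CPM in spinal cord and at 3.23 and 3.31 CPM in hindbrain. Axin2, a target of Wnt signalling, was at 14.1 and 13.8 CPM in spinal cord. Of 11 counted Notch genes, Hes5 alone was 2-fold apart. Of 9 counted BMP genes and 7 counted hedgehog genes, 0 were. The share of all counted genes apart was 2.43%, so these counts of 0 are near it.

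Of the ventral and intermediate list of the dorsoventral axis, Dbx1 and Dbx2 were higher in elongated cells. Both reached the minimum level through the elongated library alone, so no count or median of that list is read. Dbx2, a partner of Dbx1 in intermediate progenitors, was at 18.6 CPM (16.6 to 20.8) in elongated and 2.36 CPM (1.26 to 4.04) in non-elongated spinal cord cells. Genes of the ventral tube and floor plate were near 0: Olig2, a factor of motor neuron progenitors, had 6 and 0 UMIs, Nkx2-2 had 0 and 0, and Foxa2, a floor plate factor, had 3 and 1. Pax3, a factor of dorsal progenitors, was at 64.5 and 59.3 CPM with overlapping intervals. Of 8 counted dorsal genes, 0 were higher and 2 lower, Msx2 and Olig3, which reached the minimum through the non-elongated library alone. Of all counted genes, 1.05% were higher and 1.39% lower. Msx2, a target of BMP signals at the roof, was at 2.53 and 12.9 CPM, and Msx1 at 58.8 and 85.7 CPM.

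With each cell thinned to 10000 UMIs (no cell of the day 6 table was shallower), 56.2% of elongated spinal cord cells had a Pax6 UMI (51.8 to 60.6%), against 5.08% of non-elongated ones (2.35 to 9.43%). At full depth these shares were 75.9% and 15.8%. In midbrain cells the thinned shares were 1.16% (0.0294 to 6.31%) and 4.90% (1.61 to 11.1%). Dbx1 was seen in 23.7% of elongated spinal cord cells and in 0 of 177 non-elongated cells (0 to 2.06%), a limit on cells with a UMI and not on cells that express the gene; at full depth the shares were 36.7% and 1.69%, and in midbrain the thinned shares were 1.16% and 0.980%. Cdx2 was seen in 28.0% of elongated and 59.3% of non-elongated cells (49.7% and 81.9% at full depth), against 0% and 1.96% in midbrain. Hoxb9 was seen in most cells of both libraries, as given above.

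In the elongated library, Pax6 and Cdx2 RNA were seen together in fewer cells than independent detection would give. Of 7 gene pairs computed, this pair and the next are described, and they were chosen after values were seen. At 10000 UMIs per cell, 234 of 507 elongated spinal cord cells had a UMI of Pax6 alone, 91 of Cdx2 alone, 51 of both and 131 of neither. The 51 cells are 10.1% of the class, where independent detection would give 15.7%. Of 177 non-elongated cells, 5 had Pax6 alone, 101 Cdx2 alone, 4 both and 67 neither. The 4 cells are 2.26% (0.619 to 5.68%), where independent detection would give 3.02%, within that interval. Pax6 and Hoxb9 were found together in 51.5% of elongated cells, where independent detection would give 51.6%. Detection of both genes depends on the depth of each cell, which thinning holds fixed.

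**Figure D5:**
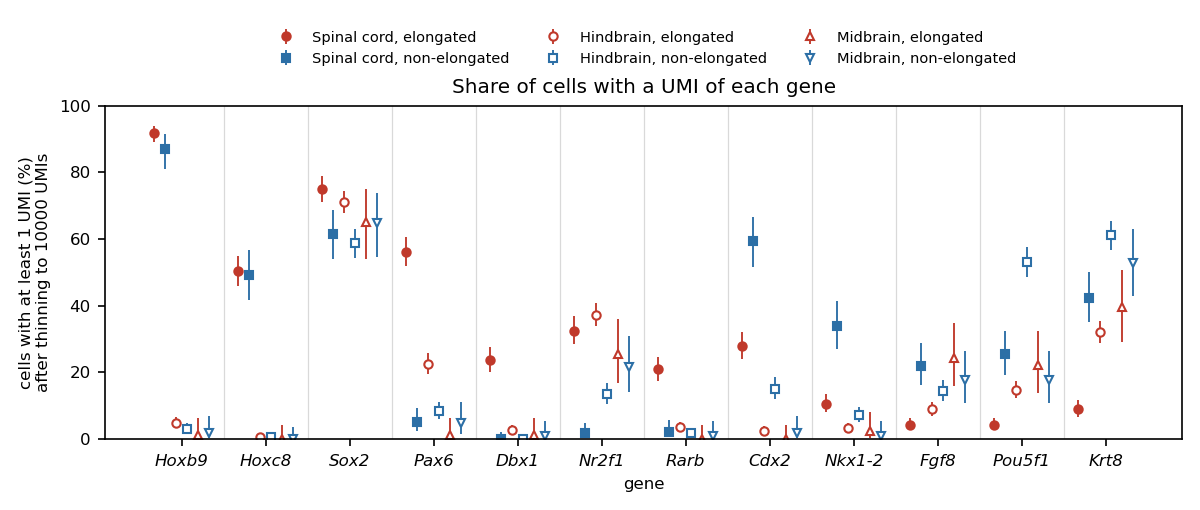
Share of cells (%) with at least 1 UMI of each gene after thinning every cell to 10000 UMIs, in the spinal cord (filled symbols), hindbrain (open circles and squares) and midbrain (open triangles) classes; red is elongated and blue non-elongated, and lines are exact 95% Clopper-Pearson intervals. Pax6, Dbx1, Nr2f1 and Rarb are seen in more elongated than non-elongated spinal cord cells, and Cdx2, Nkx1-2, Fgf8, Pou5f1 and Krt8 in fewer.

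Single cells of the class varied widely in these groups. The summed level of the 11 neuromesodermal genes had a median of 65.6 CPM over elongated spinal cord cells and 171 CPM over non-elongated ones, with highest cells at 1152 and 1060.1 CPM. The summed level of the 13 neural progenitor genes had medians of 1217 and 661 CPM, with quartiles at 948 and 1463 CPM in the elongated library and at 453 and 906 CPM in the non-elongated library. The summed Hox level had medians of 1319 and 1356 CPM, and its lowest cells were at 133 and 325 CPM. The cells of the libraries overlapped in each of these sums.

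Markers of other cell types moved with the library and are given for the whole lists. The 13 surface ectoderm and epithelial genes summed to 46.6 CPM in elongated and 338 CPM in non-elongated spinal cord cells. Of 5 counted members 5 were lower, where 1.39% of all counted genes were. Among them Cdh1, at 1.71 and 10.5 CPM, reached the minimum through the non-elongated library alone. The same list summed to 181 and 587 CPM in hindbrain and to 374 and 943 CPM in caudal epiblast, so it was lower in the elongated library in these classes too. Trp63, a defining gene of surface ectoderm, had 0 UMIs in both libraries of the spinal cord class. The 11 pluripotent and epiblast genes summed to 58.8 and 139 CPM, with Nanog at 2 and 5 UMIs. The 11 mesoderm and mesenchyme genes in the table summed to 26.2 and 68.0 CPM, with Mesp1 at 0 UMIs in both, and 1 of 2 counted members, Twist1, was lower (15.2 and 42.7 CPM). The 8 neural crest genes summed to 15.9 and 32.2 CPM, and the 5 endoderm genes to 0.294 and 0.546 CPM. The 8 midbrain genes summed to 7.88 and 15.6 CPM, and of 9 counted hindbrain genes 0 were 2-fold apart, with a median of -0.35. That count is near the share of all counted genes apart, 2.43%. The part of other cells, of doublets and of free RNA in the differences between the libraries was not tested.

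Genes of DNA replication and of mitosis had 0 of 12 and 0 of 12 members 2-fold apart between the libraries, with medians of 0.02 and 0.16. Glycolysis and hypoxia genes had 0 of 14 apart. Of all counted genes 2.43% were apart, so counts of 0 in lists of this size are near that share. Of 10 counted genes of the dissociation stress list, 3 were lower in the elongated library, where 1.39% of all counted genes were. Atf3 was at 28.1 CPM in elongated and 66.7 CPM in non-elongated spinal cord cells, Junb at 95.4 and 220.0 CPM, and Hspb1 as given above. Hspb1 reached the minimum through the non-elongated library alone. Fos, an immediate early gene, was at 285 and 382 CPM. The stress list had medians of -0.44 in spinal cord, -0.34 in hindbrain and -0.17 in caudal epiblast, and its part in the other differences was not tested.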

How the data were processed

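RNA was counted in single cells with the 10x Genomics 3 prime kit, per the labels' protocols. The submitters' processing notes name Cell Ranger 3.1 and the build mm10; the strand setting, the cell filters, the clustering and any removal of doublets are not given in the sources used here. The authors deposited UMI counts per gene and cell without normalisation, and metadata with UMI counts and detected genes as counts, the mitochondrial share in percent, map coordinates of each cell as a score, and library and class names (other, with no unit). The UMI sum, gene number and mitochondrial share of each of the 4301 and 2402 cells used were recomputed and matched the deposited metadata. Library names NENT and SENT were read as non-elongated and elongated by their initials.

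UMIs were summed per class and library and scaled to CPM (Python 3.11.15, numpy 2.4.6, pandas 2.3.3, scipy 1.17.1). Differences are of log2(CPM + 1), so they understate changes of low genes. A gene was counted at a mean of at least 5 CPM over the sums compared and called apart at 2-fold. With 1 library per group no test was run; intervals are exact Poisson, Clopper-Pearson or conditional binomial and cover counting error only. A count of 0 was given a limit of 3 UMIs. No doublet caller was run. The rule that counts genes by fold was also run on simulated sums with known changes, and no result given here rests on that run. Named genes followed a rule: the 12 most specific, the 12 highest and 12 lowest between libraries, and the 8 highest and 8 lowest against hindbrain, at 20 CPM or more in the higher sum, with 2 to 4 members of each list; some genes that met it are not reported here. Members, lists and rules were chosen with earlier results of these data known. All 314 named or listed genes in the table matched the GENCODE M21 annotation of the same build. Alternatives changed the scaling (edgeR 4.0.16 TMM factors in R 4.3.3), the pseudocount, the minimum, the weight and depth of cells and the class compared.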

Additional observations from a re-analysis of the deposited data

Results flagged for a closer look

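In 2 genes the gap between spinal cord and hindbrain ran in opposite directions in the libraries, and these differences were not tested. Acta2, a smooth muscle actin, was at 2.47 CPM in spinal cord and 7.10 CPM in hindbrain of the elongated library, a spinal cord minus hindbrain difference of -1.22 on the log2 scale. In the non-elongated library Acta2 was at 18.2 CPM in spinal cord and 1.91 CPM in hindbrain, a difference of 2.72. Cyp26a1, which degrades retinoic acid, was at 1.82 CPM in spinal cord and 7.25 CPM in hindbrain of the elongated library, a difference of -1.55. In the non-elongated library it was at 6.73 CPM in spinal cord and 1.57 CPM in hindbrain, a difference of 1.59. Cyp26a1 was highest in non-elongated mesenchyme, at 73.3 CPM.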

How the results depend on the processing

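No paired analysis was possible because each group of the day 6 table has 1 library; for the same reason no replicate could be left out. The genes named between the libraries and against hindbrain kept their sign and stayed at least 2-fold apart in all 416 values recomputed over 9 settings. Of these, 24 with no minimum and 24 with a minimum of 20 CPM could not differ, because the minimum does not enter them. The genes were chosen for the size of their difference in the same data, so this outcome is in part fixed by that choice. The 12 most specific genes were not recomputed. A value is said to have moved where it lay outside the counting interval of the value against hindbrain without a change of sign. With caudal epiblast in place of hindbrain, 30 values of the genes named against hindbrain moved and 2 did not. In elongated replicate 2, 15 moved and 1 did not. No value of these genes changed sign in either setting. The 216 genes apart between the libraries in the spinal cord class (93 higher, 123 lower) became 141 (61 and 80) with a pseudocount of 3 CPM, 500 (218 and 282) with no minimum level and 64 (32 and 32) with a minimum of 20 CPM. With cells thinned to 10000 UMIs they became 349, of which 182 were higher and 187 were among the 216. The 148 genes apart from hindbrain (69 and 79) became 235 with no minimum (142 lower) and 54 with a minimum of 20 CPM (28 and 26). Set against caudal epiblast, 127 were lower. In elongated replicate 2 of the other table they were 245 (115 and 130, over all genes of that table). Fewer genes are counted under the stricter minimum and more under none; the cause of the other changes was not tested. The share of the class among neural classes alone was 38.0% in the elongated and 22.6% in the non-elongated library. The median of the ventral and intermediate list between the libraries changed sign with no minimum (-0.078), and that of the neuromesodermal list against hindbrain in the non-elongated library with a minimum of 20 CPM (-0.0114). TMM factors moved no median over all counted genes by 0.1 or more. The 5498885 UMIs of the non-elongated class limit the precision of low genes.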

Other observations

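A pair of genes outside the lists were chosen after their values were seen. Sema3a, a secreted guidance cue, was at 36.9 CPM in elongated and 40.0 CPM in non-elongated spinal cord cells, against 3.08 and 2.38 CPM in hindbrain and 16.4 and 23.5 CPM in midbrain. Prdm8, a transcriptional regulator of neural cells, was at 15.4 CPM in elongated and 0.909 CPM in non-elongated spinal cord cells and below 1 CPM in hindbrain, at 0.338 and 0 CPM. In elongated replicate 2 the spinal cord cells had 24.4 CPM of Sema3a and 14.2 CPM of Prdm8, and the Mid/hindbrain cells 1.28 and 0.144 CPM. Both genes are among the 10 with the widest gap to the rest of a library, Sema3a in the non-elongated and Prdm8 in the elongated library.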
